A study of Mus musculus with 20 samples.

Results

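The TAM family was followed in the hippocampus of mice with and without miR-34a and with and without an amyloid transgene. The family was taken as 5 listed genes, namely the receptors Axl, Mertk and Tyro3 and the ligands Gas6 and Pros1. All 5 were found by symbol among the 39056 genes of the count table, of which 28691 had at least 1 count, and all 5 were among the 16107 genes that passed the filter on low counts. RNA came from the left hippocampus of 20 female mice, 1 library per mouse, in 4 groups of 5. The miR-34a WT Non-Tg mice carried neither change, and the miR-34a KO Non-Tg mice carried a constitutive knockout of Mir34a, not limited to any cell type. The miR-34a WT Tg-SwDI mice carried human APP with the Swedish, Dutch and Iowa mutations under the neuronal Thy1 promoter, and the miR-34a KO Tg-SwDI mice carried the transgene and lacked miR-34a. All mice were on a C57BL/6 background. They were 12 months old at the behavioural tests and 13 months old at the tissue measurements. Single mice carry the number of their library's label.

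TAM receptors are receptor tyrosine kinases that recognise dying cells and debris through bridging ligands. Gas6 and protein S, the product of Pros1, bind phosphatidylserine on the target membrane at one end and the receptor at the other. Gas6 activates all TAM receptors, whereas protein S is known to act through Mertk and Tyro3. In the brain, Axl and Mertk are known mainly from microglia and, for Mertk, also from astrocytes, where they serve engulfment and restrain innate immune signalling, and Tyro3 is known mainly from neurons.

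The sequence the knockout removes is shown first. The mature mouse miR-34a-5p lies on chr4:150068473-150068494 (plus strand, GRCm38.p6, sequence from RefSeq), and its seed, bases 2 to 8, which pairs with target transcripts, is in capitals.
miR-34a-5p: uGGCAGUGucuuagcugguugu

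Values are CPM, the count of a gene relative to the library's total count on genes, scaled by TMM factors. Totals were even, from 19549622 to 21066868 counts per library. As a check of the transgene labels, Thy1 was 685 to 769 CPM without the transgene, which uses its promoter, and 1905 to 3318 CPM with it, without overlap. The markers of neurons, hippocampal principal neurons, astrocytes, oligodendrocytes and microglia were all detected, and the summed level of 10 neuronal markers was 9966 CPM or more in every library. The level of 10 choroid plexus markers differed between libraries, with a mean log2 CPM of 1.04 to 2.91 in 9 libraries and of 4.69 to 5.79 in the other 11. KO Tg-SwDI replicate 8 stood apart from its group in the summed neuronal markers, with 14091.7 CPM against 10064.5 to 11142.3 CPM. Results it decides are given with and without it. Each library is 1 mouse, so that P values measure the spread between mice. In bulk tissue a change in the number of cells of a type and a change in RNA per cell cannot be told apart.

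**Figure D1:**
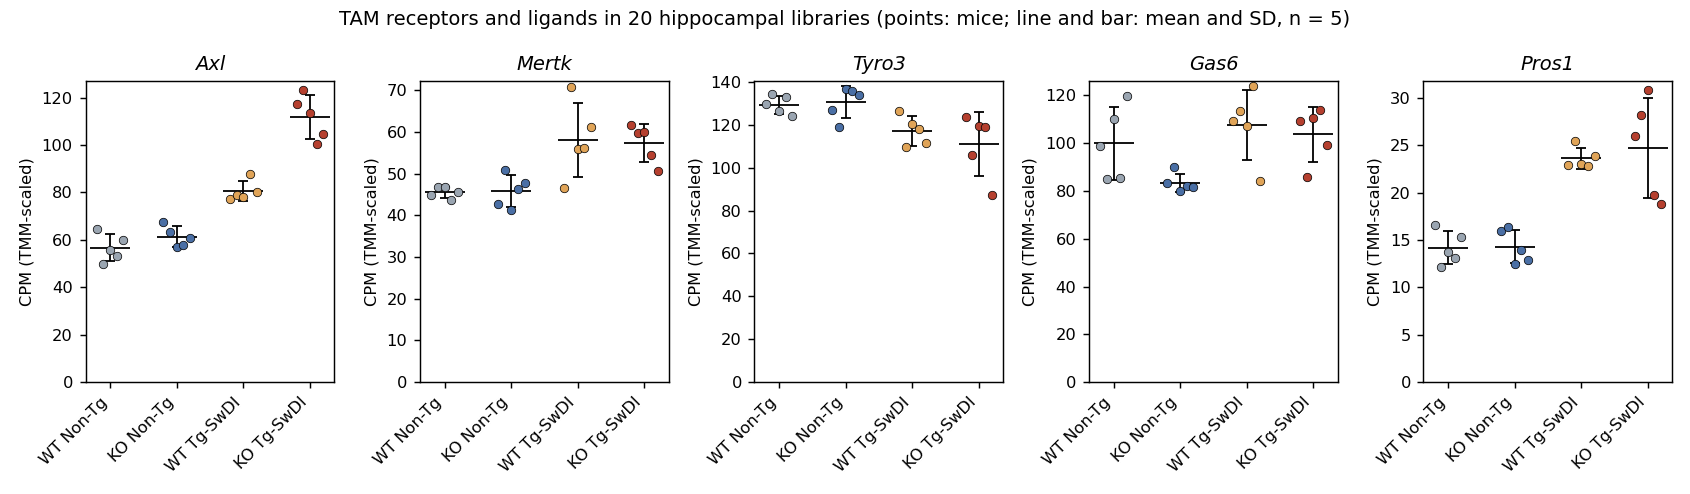
CPM of Axl, Mertk, Tyro3, Gas6 and Pros1 (y axis, from 0) in the 4 groups (x axis), with 1 point per mouse and the mean and SD of 5 mice as a line and bar. Axl lies between 100 and 123 CPM in the KO Tg-SwDI mice, above all other mice, and Pros1 lies higher in every Tg-SwDI mouse than in any Non-Tg mouse.

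Axl, the TAM receptor most associated with activated microglia, was higher in the miR-34a KO Tg-SwDI mice than in any other group. The gene lies on chr7:25757273-25788705 (minus strand, mm10; ENSMUSG00000002602.16). Its level was 64.7, 49.99, 55.6, 53.3 and 60.0 CPM in WT Non-Tg replicates 2, 3, 4, 6 and 7. It was 67.7, 63.4, 57.1, 57.7 and 61.0 CPM in KO Non-Tg replicates 1, 2, 4, 7 and 8. These ranges overlap, with 1 of 5 KO mice above every WT mouse. In the WT Tg-SwDI mice Axl was 77.3, 79.1, 78.2, 87.6 and 80.4 CPM in replicates 3, 4, 5, 6 and 7. In the KO Tg-SwDI mice it was 117, 123, 114, 100 and 105 CPM in replicates 1, 2, 3, 5 and 8. No Tg-SwDI mouse overlapped with a Non-Tg mouse, and the lowest KO Tg-SwDI mouse lay above the highest WT Tg-SwDI mouse.

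The question of what miR-34a loss changes in the presence of amyloid is answered for the family by the KO against WT contrast in Tg-SwDI mice. Axl rose from 80.5 ± 4.13 to 112 ± 9.30 CPM (mean ± SD, n = 5 each). This is 1.39-fold (95% interval 1.27 to 1.53), a log2 fold change of 0.48 (SE 0.07), with an adjusted P of 0.000673 by the quasi-likelihood test of edgeR, with the Benjamini-Hochberg adjustment over all genes tested. Of the 5 members 1 passed the test, against 1.99% of all genes in either direction (1.48% higher). Groups that do not overlap, as for Axl, were found in this direction for 2.04% of genes. The other 4 members gave log2 fold changes of -0.02 for Mertk (95% interval -0.18 to 0.15), -0.08 for Tyro3 (-0.22 to 0.07), -0.05 for Gas6 (-0.26 to 0.16) and 0.07 for Pros1 (-0.17 to 0.30), none of which passed. Axl was one of the genes the study itself named from these mice, so that its direction here is not independent of that choice.

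Other measures moved with Axl between these groups. Summed homeostatic microglial markers (12 genes, none at 0) lay between 843 and 1004 CPM in the WT Tg-SwDI and between 1041 and 1353 CPM in the KO Tg-SwDI mice, and 4 of the 12 rose in the same test. The 6 plaque-associated microglial markers summed to 344 to 435 and 426 to 632 CPM, and 2 of the 6 rose. Thy1 lay between 1905 and 2328 CPM in the WT Tg-SwDI and between 2454 and 3318 CPM in the KO Tg-SwDI mice, without overlap. The 6 mural cell markers summed to 158 to 186 and 190 to 217 CPM, also without overlap, although 0 of the 6 passed the test singly. The part of these differences in the result for Axl was not tested. In a fit that held the choroid plexus score as covariate, the log2 fold change of Axl was 0.48 with an adjusted P of 0.000429 in edgeR's quasi-likelihood test.

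The same contrast in mice without the transgene showed no change that passed the test in any member. Axl was 56.7 ± 5.76 CPM in WT and 61.4 ± 4.37 CPM in KO Non-Tg mice (n = 5 each), a log2 fold change of 0.11 (95% interval -0.02 to 0.25, edgeR adjusted P = 0.703). Gas6 was 99.9 ± 15.4 and 83.4 ± 3.79 CPM, a log2 fold change of -0.26 (95% interval -0.47 to -0.05, edgeR unadjusted P = 0.0181, adjusted P = 0.549). With the choroid plexus score as covariate it was -0.07, and all 5 KO but 2 of the 5 WT Non-Tg libraries held little of these markers. No gene of the 16107 was called by edgeR's quasi-likelihood test in this contrast (0%, lowest adjusted P = 0.259), although 1302 had an unadjusted P under 0.05. DESeq2 called 2 higher and 5 lower, and edgeR's exactTest 0 higher and 4 lower.

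Whether the effect of miR-34a loss depended on the transgene was tested by the interaction. For Axl the KO effect with the transgene exceeded that without it by a log2 of 0.36 (95% interval 0.17 to 0.55). Its adjusted P of 0.0641 in edgeR's quasi-likelihood test did not pass (unadjusted P = 0.000746). Of the 5 members 0 passed this test, against 0.608% of all genes, and 1 of the 5 had an unadjusted P under 0.05. It did not pass under 23 of 28 alternatives either, among them the choroid plexus covariate (0.35, edgeR adjusted P = 0.138) and the removal of GC and length trends (0.28, edgeR adjusted P = 0.191). It passed under the other 5. DESeq2 gave an adjusted P of 0.0176, and edgeR without the filter on low counts gave 0.0355. Leaving out WT Non-Tg replicate 3, KO Tg-SwDI replicate 5 or KO Tg-SwDI replicate 8 gave edgeR adjusted P of 0.0340, 0.0381 and 0.0389. Averaged with and without the transgene, the miR-34a effect passed the test for Axl (log2 fold change 0.30, SE 0.05, edgeR adjusted P = 0.00771), 1 of the 5 members against 0.0807% of all genes (0.0435% higher).

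**Figure D2:**
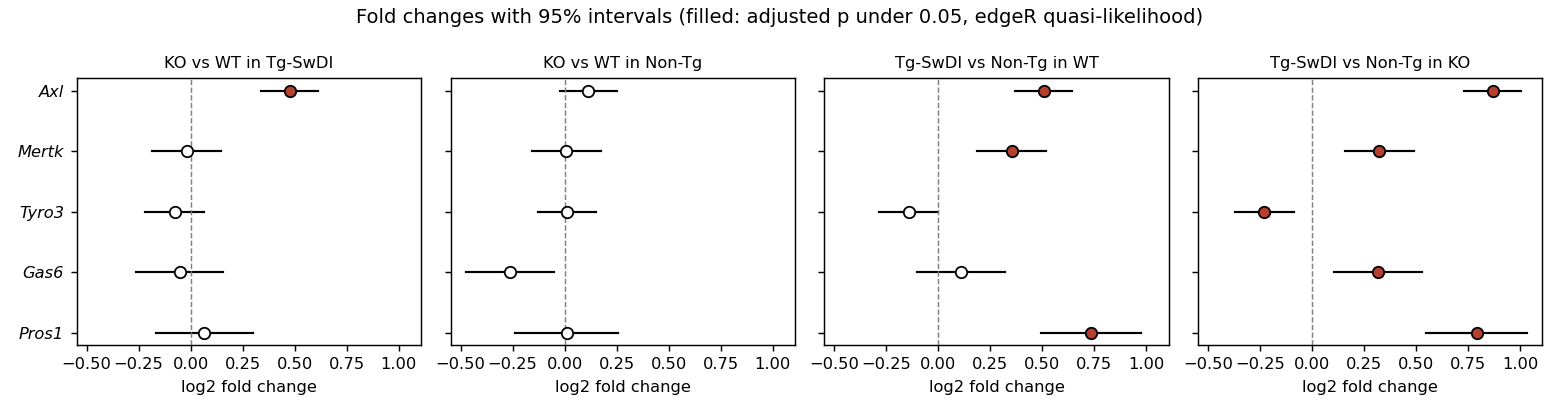
Log2 fold changes (x axis) of the 5 members (y axis) in the 4 pairwise contrasts, as points with 95% intervals. Filled points passed an adjusted P of 0.05. In KO against WT only Axl in Tg-SwDI mice is filled. In Tg-SwDI against Non-Tg KO mice all 5 members are filled, although Gas6 and Tyro3 did not pass with the choroid plexus covariate.

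The transgene was accompanied by higher Axl, Mertk and Pros1 RNA in both miR-34a genotypes. In WT mice 3 of the 5 members passed the test, all higher, against 4.41% of all genes in either direction (3.94% higher), and in KO mice 5 of 5 passed, 4 higher and 1 lower, against 20.8% (12.5% higher, 8.31% lower). The Tg-SwDI groups of these contrasts also enter the KO against WT contrasts, so that the values share samples. For Axl the log2 fold change was 0.51 (SE 0.07, edgeR adjusted P = 6.25e-06) in WT and 0.87 (SE 0.07, edgeR adjusted P = 2.05e-10) in KO mice. Groups without overlap in this direction were found for 5.1% of genes in WT and 8.47% in KO mice. Axl and Pros1 were among them in both.

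Mertk, the receptor of microglia and astrocytes that carries much of the engulfment of dying cells, lies on chr2:128698956-128802894 (plus strand; ENSMUSG00000014361.5). Its level was 44.8, 46.8, 46.9, 43.8 and 45.6 CPM in WT Non-Tg replicates 2, 3, 4, 6 and 7, and 42.7, 51.0, 41.4, 46.4 and 47.8 CPM in KO Non-Tg replicates 1, 2, 4, 7 and 8. It was 46.5, 70.8, 56.0, 56.2 and 61.2 CPM in WT Tg-SwDI replicates 3, 4, 5, 6 and 7, and 61.7, 59.7, 60.1, 54.6 and 50.5 CPM in KO Tg-SwDI replicates 1, 2, 3, 5 and 8. In each miR-34a genotype 4 of 5 Tg-SwDI mice lay above every Non-Tg mouse, and 1 lay within the Non-Tg range. The log2 fold change with the transgene was 0.35 (SE 0.08, edgeR adjusted P = 0.00704) in WT and 0.32 (SE 0.08, edgeR adjusted P = 0.00567) in KO mice. WT Tg-SwDI replicate 4 was the highest of its group, and without it the WT value was 0.27 with an edgeR adjusted P of 0.0336.

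Tyro3, the TAM receptor of neurons, lies on chr2:119797733-119818104 (plus strand; ENSMUSG00000027298.17) and moved the other way. It was 130, 134, 127, 133 and 124 CPM in WT Non-Tg replicates 2, 3, 4, 6 and 7, and 127, 119, 137, 136 and 134 CPM in KO Non-Tg replicates 1, 2, 4, 7 and 8. It was 127, 109, 120, 118 and 112 CPM in WT Tg-SwDI replicates 3, 4, 5, 6 and 7, and 124, 106, 120, 119 and 87.2 CPM in KO Tg-SwDI replicates 1, 2, 3, 5 and 8. The Tg-SwDI and Non-Tg ranges overlapped in both genotypes, and KO Tg-SwDI replicate 8 was the lowest of all. The log2 fold change with the transgene was -0.23 in KO mice (SE 0.07, edgeR adjusted P = 0.0185) and -0.14 in WT mice (SE 0.07, edgeR adjusted P = 0.318). Without KO Tg-SwDI replicate 8 the KO value was -0.15 (edgeR adjusted P = 0.0373), and with the choroid plexus covariate it was -0.22, no longer called (edgeR adjusted P = 0.116). Of 10 neuronal markers 0 passed the test in WT mice and 2 were lower in KO mice, where 8.31% of all genes were lower. Their sum was 11382 ± 246 CPM in KO Non-Tg and 11355 ± 1595 CPM in KO Tg-SwDI mice (mean ± SD, n = 5 each). In WT mice it was 11266 ± 367 CPM without and 10589 ± 481 CPM with the transgene. KO Tg-SwDI replicate 8, lowest in Tyro3, had the highest sum of its group, 14092 CPM. The part of neuronal RNA in the result for Tyro3 was not tested.

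Pros1, which encodes protein S, a ligand of Mertk and Tyro3 best known as an anticoagulant, lies on chr16:62854307-62929346 (plus strand; ENSMUSG00000022912.8). Its level was 16.6, 12.1, 13.8, 13.1 and 15.3 CPM in WT Non-Tg replicates 2, 3, 4, 6 and 7, and 15.9, 16.3, 12.5, 13.9 and 12.9 CPM in KO Non-Tg replicates 1, 2, 4, 7 and 8. In the transgenic mice it was 22.9, 25.4, 23.0, 22.9 and 23.9 CPM in WT replicates 3, 4, 5, 6 and 7, and 26.0, 28.2, 30.8, 19.7 and 18.8 CPM in KO replicates 1, 2, 3, 5 and 8. Every Tg-SwDI mouse lay above every Non-Tg mouse, and the KO Tg-SwDI mice were the more widely spread. The transgene gave a log2 fold change of 0.73 (1.66-fold, 95% interval 1.41 to 1.97, edgeR adjusted P = 0.000146) in WT and of 0.79 (1.73-fold, 1.46 to 2.04, edgeR adjusted P = 2.47e-05) in KO mice. In WT mice this was a larger log2 value than that of Axl, with overlapping intervals (0.49 to 0.98 for Pros1, 0.37 to 0.64 for Axl).

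Gas6, the ligand of all TAM receptors, lies on chr8:13465374-13494490 (minus strand; ENSMUSG00000031451.6) and shares 34 of its 2548 exonic bases with Tmem255b on the other strand. Its level was 98.9, 84.9, 110, 85.5 and 120 CPM in WT Non-Tg replicates 2, 3, 4, 6 and 7, and 83.2, 89.9, 80.2, 81.9 and 81.6 CPM in KO Non-Tg replicates 1, 2, 4, 7 and 8. It was 109, 114, 107, 124 and 84.1 CPM in WT Tg-SwDI replicates 3, 4, 5, 6 and 7, and 109, 85.7, 110, 114 and 99.4 CPM in KO Tg-SwDI replicates 1, 2, 3, 5 and 8. Within 3 of the groups some mice lay between 84.1 and 85.7 CPM and the rest at 98.9 CPM or above, whereas all KO Non-Tg mice were low. The log2 fold change with the transgene was 0.32 in KO mice (SE 0.10, edgeR adjusted P = 0.0324) and 0.11 in WT mice (95% interval -0.10 to 0.32, edgeR adjusted P = 0.697). Without KO Tg-SwDI replicate 8 the KO value was 0.33 and did not pass (edgeR adjusted P = 0.0562), as also when some other single libraries were left out.

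The level of Gas6 ran with the choroid plexus markers of the same library. In the 9 libraries with little of these markers Gas6 lay between 80.2 and 89.9 CPM, and in the 11 with much of them it lay between 98.9 and 124 CPM, without overlap. The 9 libraries were all 5 KO Non-Tg mice, 2 WT Non-Tg mice, 1 WT Tg-SwDI mouse and 1 KO Tg-SwDI mouse. Among them the KO Tg-SwDI mouse (85.7 CPM) lay within the range of the KO Non-Tg mice, a comparison that rests on 1 mouse. In KO mice all 5 Non-Tg libraries held little of these markers and 4 Tg-SwDI libraries held much. The transgene and the choroid plexus score thus nearly coincide there, and the part of each in Gas6 was not tested. In the fit with that score as covariate, the transgene effect on Gas6 in KO mice was 0.06 (edgeR adjusted P = 0.691). It did not pass either once trends on GC content and length were removed per library (0.14, edgeR adjusted P = 0.205). Of the 10 choroid plexus markers 8 were higher with than without the transgene in KO mice, and 0 passed in the other pairwise contrasts.

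**Figure D3:**
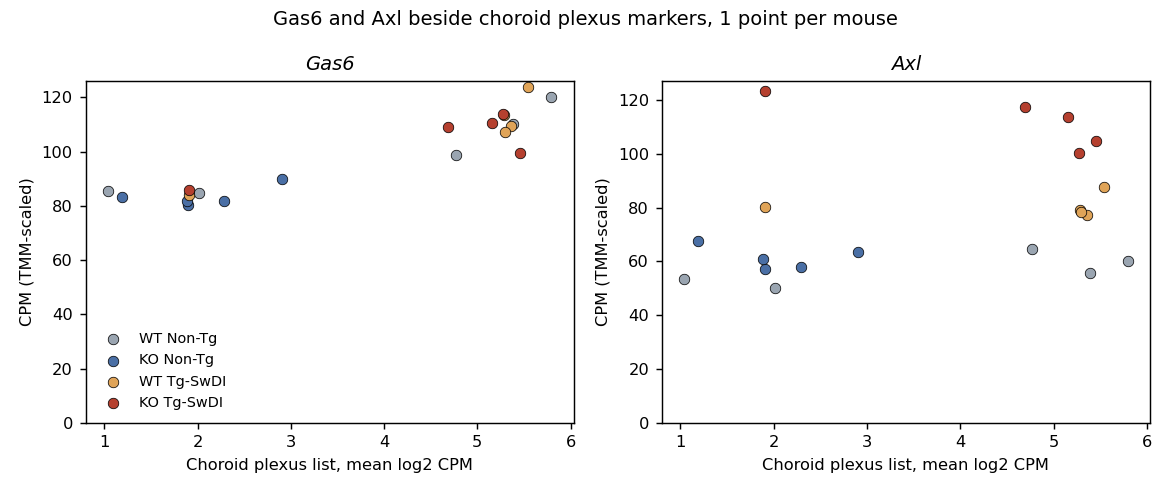
CPM of Gas6 (left) and Axl (right) on the y axis against the mean log2 CPM of 10 choroid plexus markers on the x axis, 1 point per mouse, coloured by group. Gas6 lies between 80.2 and 89.9 CPM in the 9 mice on the left of the x axis and between 98.9 and 124 CPM in the 11 on the right, whereas Axl is ordered KO Tg-SwDI, WT Tg-SwDI, Non-Tg on both sides.

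Averaged over both miR-34a genotypes, all 5 members passed the test for the transgene, against 17.2% of all genes (11.3% higher, 5.82% lower). Pros1 (log2 fold change 0.76), Axl (0.69), Mertk (0.34) and Gas6 (0.21, edgeR adjusted P = 0.0471) were higher. Without KO Tg-SwDI replicate 8 Gas6 had 0.22 and did not pass (edgeR adjusted P = 0.0656). Tyro3 was lower by a log2 fold change of -0.19 (edgeR adjusted P = 0.00776). With the choroid plexus covariate, 3 of the 5 remained called, as Gas6 (0.04, edgeR adjusted P = 0.715) and Tyro3 (-0.18, edgeR adjusted P = 0.0529) did not pass.

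To compare members with each other, levels were divided by exonic length. In the WT Non-Tg mice Gas6 was the most abundant at 39.2 ± 6.03 CPM per kb, followed by Tyro3 (20.9 ± 0.688), Axl (11.3 ± 1.14), Mertk (10.5 ± 0.302) and Pros1 (3.47 ± 0.433; all mean ± SD, n = 5). The ranges of Axl and Mertk overlapped, and the other neighbours in this order did not. The same order held in the KO Non-Tg and WT Tg-SwDI mice. In the KO Tg-SwDI mice Axl (22.2 ± 1.85) came before Tyro3 (17.9 ± 2.41), with overlapping ranges.

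The makeup of the receptor RNA is described by the same values. Tyro3 made up 49.0% ± 1.90 of the summed receptor level per kb in the WT Non-Tg mice and 48.0% ± 2.78 in the KO Non-Tg mice. It made up 39.2% ± 3.21 in the WT Tg-SwDI and 33.5% ± 2.89 in the KO Tg-SwDI mice (SD, n = 5 each). The share of Axl was 26.4% ± 2.28, 27.8% ± 1.97, 33.1% ± 1.34 and 41.7% ± 2.66 in the same order of groups. The lowest Axl share among KO Tg-SwDI mice, 38.6%, lay above the highest among WT Tg-SwDI mice, 35.2%. Mertk made up between 24.1% and 27.7% in the 4 group means. Among the ligands, Gas6 made up between 87.0% (KO Tg-SwDI) and 91.8% (WT Non-Tg) of the summed level per kb in the group means.

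**Figure D4:**
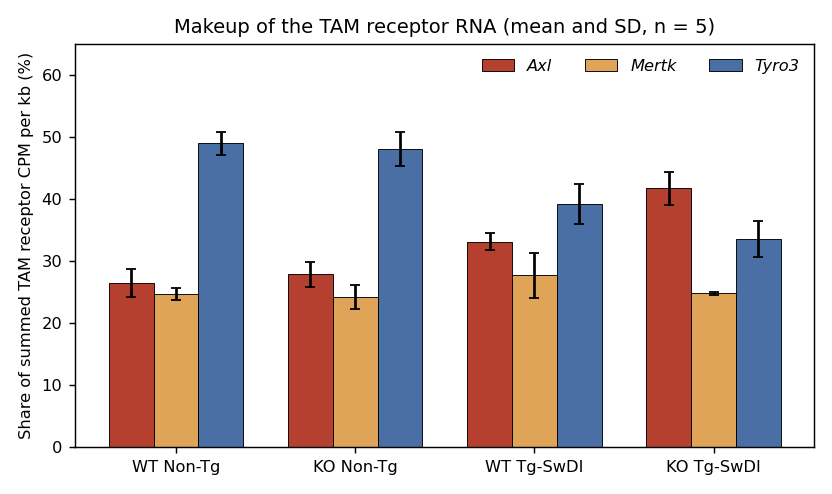
Share of Axl, Mertk and Tyro3 in the summed CPM per kb of the 3 receptors (y axis, percent) in the 4 groups (x axis), as means with SD of 5 mice. Tyro3 is the largest share in 3 groups, and Axl, at 41.7%, is the largest in the KO Tg-SwDI mice.

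After each group's mean was subtracted, the log2 CPM of Axl and Pros1 had a Pearson r of 0.76 over the 20 libraries, against 0.20 for Axl and Mertk, 0.21 for Axl and Gas6 and -0.11 for Axl and Tyro3. This did not hold in every group, as the WT Tg-SwDI mouse highest in Axl (replicate 6) was the lowest of its group in Pros1. Pros1 and Mertk had the next highest r among the pairs of members, 0.45. The 3 genes most like Axl by this measure were Epb41l2 (r = 0.90), the lipid phosphatase gene Plpp3 (0.90) and Cybb (0.89), a subunit of the phagocyte NADPH oxidase. The 3 most like Gas6 were the protease inhibitor gene Spint2 (0.96), the transporter gene Abca4 (0.95) and the collagen gene Col8a2 (0.94). Those most like Pros1 were the efflux transporter gene Abcb1a (0.94), S100a13 (0.92) and Trim12a (0.89). For Mertk they were Xdh (0.90), Ubtd1 (0.82) and Ckb (0.81), and for Tyro3 Dpy19l1, Fbh1 and Ube2q2 (0.89 each). These points share library depth and tissue makeup and are given as a description. Leaving out the 2 libraries farthest from the median of the member lowered r to between 0.58 and 0.79 for the genes most like Mertk and Tyro3, and left it at 0.85 or above for those of the other members.

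The other genes of the pathway were read from 7 lists of 69 genes, of which 66 passed the filter. In KO against WT in Tg-SwDI mice 2 of the 66 were higher and 0 lower, where 1.48% of all genes were higher. The median log2 fold change was 0.01, against 0.00 for all genes tested. In Tg-SwDI against Non-Tg mice 13 rose and 0 fell in WT mice, and 22 rose and 3 fell in KO mice. Of all genes 3.94% rose in WT mice, and 12.5% rose and 8.31% fell in KO mice. The medians were 0.07 and 0.16 against 0.00 for all genes. In KO against WT without the transgene 0 of the 66 were called by edgeR.

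Trem2 and Ifnar2 were the pathway genes that rose with miR-34a loss in Tg-SwDI mice. Trem2, a lipid-sensing receptor of microglia that binds phosphatidylserine, was 67.7 ± 5.85 CPM in WT and 94.2 ± 13.7 CPM in KO Tg-SwDI mice (n = 5 each; log2 fold change 0.48, SE 0.08, edgeR adjusted P = 0.00416). Ifnar2, which encodes a subunit of the type I interferon receptor, was 19.3 ± 1.77 and 25.5 ± 4.02 CPM (log2 fold change 0.40, SE 0.09, edgeR adjusted P = 0.0250). In both genes the 5 KO Tg-SwDI mice lay above the 5 WT Tg-SwDI mice, as was found for 2.04% of all genes. Both also passed the interaction test, 2 of the 66 against 0.608% of all genes. The differences were 0.78 for Trem2 (edgeR adjusted P = 0.0146) and 0.57 for Ifnar2 (edgeR adjusted P = 0.0402). They include lower values in KO than in WT Non-Tg mice, which did not pass. These log2 fold changes were -0.30 for Trem2 (edgeR adjusted P = 0.508) and -0.17 for Ifnar2 (edgeR adjusted P = 0.6845). Trem2 was also among the genes named by the study.

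Of 10 genes of TAM feedback on interferon and cytokine signalling, 5 were higher and 0 lower in the mean transgene effect. Against this and the following list counts, 11.3% of all genes were higher and 5.82% lower in the same test. Socs3, a suppressor of cytokine signalling that TAM receptors are known to induce, had a log2 fold change of 0.89 (edgeR adjusted P = 3.94e-07). In KO against WT Tg-SwDI mice its log2 fold change of 0.40 did not pass (edgeR adjusted P = 0.121).

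Of the 13 tested genes for other phosphatidylserine receptors and bridging proteins, 5 were higher and 1 lower in the mean transgene effect. Trem2 (log2 fold change 2.84, edgeR adjusted P = 4.31e-20) and Cd300lf, a myeloid phosphatidylserine receptor (2.49, edgeR adjusted P = 1.44e-07), had the largest changes. Cd300lf had few reads, at most 23 counts in any library. Its means were 0.11 and 0.14 CPM in WT and KO Non-Tg mice and 0.56 and 0.94 CPM in WT and KO Tg-SwDI mice. Its 95% interval was accordingly wide, 1.91 to 3.07. Of the 15 listed, Timd4 and Havcr1 were under the filter.

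Of 5 genes that shape the shedding of receptor ectodomains, 3 were higher. The sheddase gene Adam17 rose by a log2 of 0.47 (edgeR adjusted P = 2.29e-06). Its cofactor gene Rhbdf2 had 0.71 (edgeR adjusted P = 0.00174). With the transgene Rhbdf2 passed in KO mice (0.99, edgeR adjusted P = 0.00243) but not in WT mice (0.42, edgeR adjusted P = 0.352). Of 18 signal transduction genes 4 were higher and 1 lower, led by the exchange factor gene Vav1 (1.36, edgeR adjusted P = 3.04e-10) and the phospholipase gene Plcg2 (0.75, edgeR adjusted P = 1.35e-08).

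Of 5 tested genes for the maturation of TAM ligands and for other ligands, 2 were higher and 1 lower, and Tulp1 was under the filter. Lgals3, which encodes galectin-3, a further ligand of Mertk, had a log2 fold change of 1.48 (edgeR adjusted P = 1.27e-10). Vkorc1, which recycles the vitamin K that the carboxylation of Gas6 and protein S needs, had 0.36 (edgeR adjusted P = 0.0164). Of 8 genes for phosphatidylserine exposure and do-not-eat signals 3 were higher, among them Sirpa, the receptor for CD47 (0.20, edgeR adjusted P = 5.54e-05). Of 7 genes listed for the LXR axis, through which cholesterol is known to raise Mertk, 2 were higher. They were Abca1 (0.38, edgeR adjusted P = 0.000506) and Ppard (0.17, edgeR adjusted P = 0.0137), which encodes a nuclear receptor other than LXR. With the transgene Ppard passed in KO mice (0.31, edgeR adjusted P = 0.00196) but not in WT mice (0.04, edgeR adjusted P = 0.867). All values in this and the preceding 3 paragraphs, unless a contrast is named, are mean transgene effects.

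Cell type markers moved with these results. In Tg-SwDI against Non-Tg mice 12 of 12 homeostatic and 6 of 6 plaque-associated microglial markers were higher in each miR-34a genotype. Summed homeostatic markers were 442 to 557 CPM in WT Non-Tg and 447 to 478 CPM in KO Non-Tg mice. They lay between 843 and 1004 CPM in the WT Tg-SwDI and between 1041 and 1353 CPM in the KO Tg-SwDI mice. Of 10 astrocyte markers 5 were higher in each genotype. Among 9 oligodendrocyte markers 1 was higher in WT and 5 in KO mice, and 0 were lower in either. These counts stand against 3.94% of all genes higher in WT and 12.5% in KO mice. Of 9 endothelial markers 1 was lower in WT mice, where 75 of all 16107 genes were lower, and 0 passed in KO mice. Of 7 border-associated macrophage markers 0 passed in either. The part of these markers in the changes of Axl, Mertk and Pros1 was not tested.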

How the data were processed

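RNA-seq counts of 20 libraries (5 per group) were analysed. The deposited values are raw counts of reads per ENSEMBL gene, which the authors made by aligning reads of an mRNA library to mm10 with STAR and counting with FeatureCounts. The strand setting and the treatment of reads matching several genes are not given in the sources used here. Identifiers were matched to GENCODE M21 without version numbers (38872 of 39056, 99.5%). Samples were grouped by the labels alone. The 5 members and all gene lists were chosen with earlier results of these data known.

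Genes were kept by filterByExpr (minimum count 10, minimum total 15), scaled by TMM factors and fitted with edgeR 4.0.16 (R 4.3.3, limma 3.58.1) in 1 quasi-likelihood model of 4 group means with 16 residual degrees of freedom. P values were adjusted by the Benjamini-Hochberg method over 16107 genes at an FDR of 0.05. Likeness used log2 CPM with a prior count of 2, and CPM per kb used the exonic length. Intervals are 95% intervals of the fit. No library was identical to another. Tables and figures used Python 3.11.15.

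Genes named were the members, pathway genes past the FDR in KO against WT in Tg-SwDI mice or in the interaction, the 2 largest mean transgene effects past the FDR per list, the 3 genes most like each member, and Thy1. A few items that this rule or the sequence search would name are not reported here. Alternatives were RLE factors, library size alone, no filter, a mean CPM of at least 1, the replicate number as a block, the choroid plexus score as a covariate, removal of GC and length trends, DESeq2 1.42.0, edgeR's exactTest, the compared groups alone and each library left out.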

Additional observations from a re-analysis of the deposited data

How the results depend on the processing

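Axl in KO against WT Tg-SwDI mice kept its direction and its call under all 30 alternatives run, with log2 fold changes of 0.41 to 0.52. So did Axl, Mertk and Pros1 in both pairwise transgene contrasts. The count of members called in Tg-SwDI against Non-Tg KO mice fell from 5 to 3 with the choroid plexus covariate, and that of the mean transgene effect likewise from 5 to 3. Gas6 lost its call under 13 of 30 alternatives in the former and 21 of 28 in the latter, the edgeR adjusted P rising to 0.691 and 0.715 at most. Among these, edgeR adjusted P lay between 0.0562 and 0.0747 when KO Non-Tg replicate 1, 4, 7 or 8 or KO Tg-SwDI replicate 1, 3, 5 or 8 was left out of the former. It lay between 0.0617 and 0.0884 when any library but WT Non-Tg replicate 4 or 7, KO Non-Tg replicate 2, WT Tg-SwDI replicate 7 or KO Tg-SwDI replicate 2 was left out of the latter. Tyro3 lost its KO call also with the 2 groups alone (-0.23, edgeR adjusted P = 0.0682). The interaction count was 1 instead of 0 (Axl) without the filter on low counts and with DESeq2, and ranged from 0 to 1 over the libraries left out. The replicate block changed the mean miR-34a count from 1 to 0 (Axl 0.24, edgeR adjusted P = 0.365). It also cost Gas6 its calls (adjusted P = 0.161 in KO mice, 0.239 for the mean). Same-numbered samples did not deviate together (r over 0.1 in 2 of 16 pairs, from -0.40 to 0.15), so the numbers were not taken as pairs. Over all genes, KO against WT in Tg-SwDI mice gave 239 higher and 81 lower with edgeR, 494 and 239 with DESeq2, 410 and 155 with exactTest, 397 and 183 with the covariate, 115 and 40 with GC and length trends removed, and 102 and 115 with library size alone. The interaction gave 69 and 29, against 269 and 213 with DESeq2, 28 and 4 with the covariate, 27 and 2 with trends removed and 42 and 17 with library size alone. The transgene contrast gave 2013 and 1338 in KO mice, against 1076 and 168 with the covariate, 1514 and 3012 with trends removed and 1675 and 1792 with library size alone, and 635 and 75 in WT mice, against 572 and 155 with trends removed. Its mean gave 1828 and 938, against 1195 and 192 and 1523 and 3315 with the covariate and trends removed. The mean miR-34a effect gave 7 and 6, against 27 and 30 with DESeq2 and 3 and 7 with library size alone. The causes were not tested. Of uncalled values 38 changed sign, 37 of them by less than 1 SE. Pros1, with the fewest counts, has the widest intervals.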
